A study of Mus musculus with 8 samples.

Results

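The comparison set brain RNA of mice given a high dose of rosemary extract (RE) against brain RNA of mice given a low dose, both after the tail suspension test (TST). It used 4 of the 8 arrays in the series, 2 per dose, chosen by the group named in the sample titles. It was described across all 19505 named genes of the array, with 1 probe set per gene, the one with the highest mean over the 8 arrays. All groups were male mice of the outbred ICR strain, bought at 8 weeks of age, kept in individual cages and used after 1 week of acclimatization. The extract was taken orally, dissolved in the drinking water, for 7 days. Per the labels, 7 mice were assigned to each group. Mice of the low-dose group received 10 mg/kg. For the high-dose group the labels conflict, with 100 mg/kg in both title and treatment protocol and 50 mg/kg in the source name, so no single figure is used for it here. The other 2 groups of 2 arrays received the same drinking water without extract, one with TST and one without, and serve below only as reference levels and for the estimate of spread. The labels give the tissue as limbic system in most fields and as hippocampus in the description. Whether each RNA sample was 1 mouse or a pool of several is not stated, and neither is the time between the TST and tissue collection. Every p-value below therefore rests on the spread between arrays of a group, which may be technical.

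Rosemary is a culinary herb of the mint family whose polyphenols, carnosic acid, carnosol and rosmarinic acid among them, are known as antioxidants and, in cultured cells, as activators of the Nrf2 antioxidant pathway. The TST hangs a mouse by its tail and scores its immobility, and it is also an acute stressor. Neurons respond to activity and stress by switching on immediate early genes such as Fos and Egr1 within minutes. Glucocorticoid hormones released by stress act through the receptor encoded by Nr3c1 on target genes such as Sgk1 and Fkbp5. Heat shock factor induces chaperone genes such as Hspa1a when proteins unfold.

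Among the list members named here, the immediate early gene Fos, the chaperone genes Hspa1a and Dnajb1, and the kinase genes Sgk1 and Sik1 were higher at the high dose. Each had both high-dose arrays above both low-dose arrays, with differences between 0.655 and 1.135 on the log2 scale. The high-dose arrays lay above both low-dose arrays in 13.0% of all named genes. In all 365 genes past the threshold given below the doses did not overlap. Other stress-induced genes were lower, such as Chac1 at -0.765, Atf3 at -0.31 and Fkbp5 at -0.265, of which only Chac1 met the threshold given below. Each of the 5 higher genes also missed that threshold when certain single extract arrays were left out. Of the other list members, Alas2, Avpr1b, C1ql1, Cartpt, Des, Gjb6 and Htr3b were past that threshold upward with all arrays. None of these differences, and none of those of any other gene, passed adjustment for the number of probe sets. With limma, 0 of 22206 probe sets (0.0%) had an adjusted p under 0.05, and the lowest adjusted p was 1. At an unadjusted p under 0.05 there were 425 probe sets (1.91%), against 1110.3 that make up 5% of the table. All 425 also met the study's own threshold, a fold change above 1.2 with an unadjusted p under 0.05. Of these, 210 (0.946%) were higher and 215 (0.968%) lower at the high dose. The study's kind of test, a one-way analysis of variance on the 4 arrays, placed 559 probe sets past the same threshold and 812 at an unadjusted p under 0.05, with 0 after adjustment. By gene, 365 of 19505 (1.87%) were past the threshold, 179 higher (0.918%) and 186 lower (0.954%). "Past the threshold" below always means this unadjusted threshold of the study in the limma fit, and the gene counts are to be read against these shares.

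Most of the genes past the threshold were weakly detected. In 269 of the 365 (73.7%) both dose means were at or below 7.47, the median of all values, against 47.6% of all named genes. Predicted loci, olfactory, vomeronasal and taste receptors and small RNAs made up 86 of the 365 (23.6%), against 12.7% of all named genes. The smallest difference past the threshold was 0.505 log2. At the median standard error (SE) of 0.292, a difference of 0.67 log2, or 1.59-fold, was needed to reach an unadjusted p of 0.05. Smaller differences were called only in genes with a smaller error.

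The doses differed no more than the arrays of the low dose differed from each other. The low-dose pair differed by more than 1 log2 unit in 1439 probe sets and the high-dose pair in 361. The 4 pairs that cross the doses differed as much in 416 to 815 probe sets. The median absolute gap was 0.33 log2 in the low-dose pair, 0.22 in the high-dose pair and 0.23 to 0.27 across doses. Correlations over probe sets were 0.985 within the low dose, 0.992 within the high dose and 0.988 to 0.992 across doses. In 5226 named genes (26.8%) both arrays of one dose lay above both of the other, 2530 (13.0%) with the high dose above and 2696 (13.8%) with it below. The 2 low-dose arrays also decided much of the count. Without low-dose replicate 1, 1183 probe sets were past the threshold, 391 higher and 792 lower, and 8 passed an adjusted p of 0.05. Without low-dose replicate 2 there were 714, of which 467 were higher. Leaving out high-dose replicate 1 gave 247. Leaving out either water array with TST, which changes only the spread, gave 637.

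**Figure D1:**
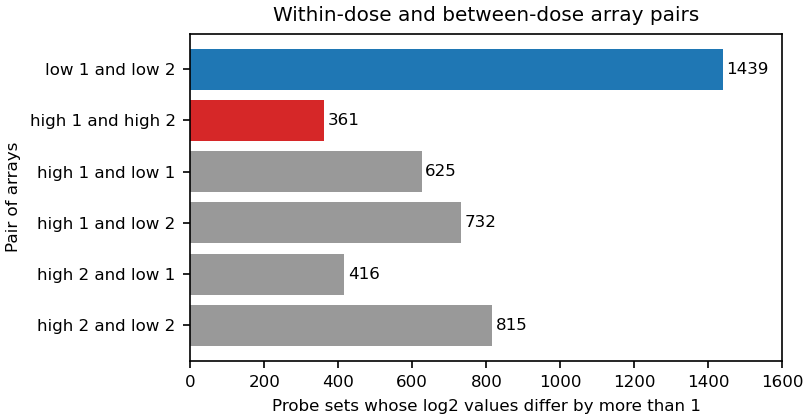
Number of probe sets (x axis) whose deposited log2 values differ by more than 1 between the arrays of each pair (y axis): the low-dose pair in blue, the high-dose pair in red and the 4 pairs across doses in grey. The low-dose pair, with 1439 probe sets, differs more than any pair across doses, and the high-dose pair, with 361, differs less.

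Fos encodes a subunit of the AP-1 transcription factor and is widely used as a marker of recent neuronal activity. Its promoter carries cyclic AMP response elements, and the 250 bases before its start are shown because Fos was the most raised member of the activity genes. The sequence is from RefSeq, build GRCm38.p6, chr12:85473640-85473889, plus strand, with both copies of the element core TGACG in capitals.
Fos: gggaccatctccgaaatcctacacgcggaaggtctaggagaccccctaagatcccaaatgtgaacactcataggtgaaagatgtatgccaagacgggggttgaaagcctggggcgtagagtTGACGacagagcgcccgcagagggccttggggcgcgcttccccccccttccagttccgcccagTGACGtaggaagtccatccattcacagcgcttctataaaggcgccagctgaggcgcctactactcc
The core TGACG, or its reverse complement CGTCA, occurs in 17.8% of 32851 promoter windows of this length. The Fos window also holds 1 TATAAA, a motif found in 7.59% of them. The match describes the window only.

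The Fos level was 8.13 and 7.93 (log2) on the low-dose arrays and 8.61 and 9.60 on the high-dose arrays. On the 4 water arrays it lay between 7.56 and 8.06. Both high-dose arrays were thus above every other array, replicate 2 by the wider margin. The log2 difference between doses was 1.075 (SE 0.331, 95% confidence interval 0.317 to 1.83, n = 2 arrays per dose, limma, unadjusted p = 0.0112, adjusted p = 1), a 2.11-fold difference on the deposited scale. Sik1, an activity-induced kinase that restrains CREB-dependent transcription, had levels of 7.96 and 7.46 at the low dose and 8.44 and 8.29 at the high dose. The Sik1 difference was 0.655 log2 (SE 0.276). Both calls depended on single arrays. Without low-dose replicate 2, Fos was at 0.975 and Sik1 at 0.405 log2, and neither was past the threshold. Without high-dose replicate 2, Fos was at 0.58 and Sik1 at 0.73, again not past it, and without high-dose replicate 1 Sik1 was at 0.58. Sik1 also missed the threshold with a trended robust prior.

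Among 24 immediate early genes, Fos and Sik1 were past the threshold and 0 were past it in the other direction. The difference was above 0 in 21 of the 24, with a median of 0.19 log2. Over all named genes it was above 0 in 48.7% and below 0 in 50.5%, with a median of -0.005. In 4 of the 24 both high-dose arrays lay above both low-dose arrays and in 1 below, where all genes gave 13.0% and 13.8%. Arc, a synaptic plasticity effector, had levels of 10.03 and 9.96 at the low dose and 9.83 and 11.43 at the high dose. Egr1, a zinc finger transcription factor, stood at 13.90 and 13.99 against 13.46 and 14.89, and Npas4, an activity-dependent factor, at 8.86 and 8.08 against 8.44 and 9.55. In these 3 genes high-dose replicate 2 was the highest of the 4 arrays, while replicate 1 lay below both low-dose arrays in Arc and Egr1 and between them in Npas4. Their log2 differences of 0.635 (SE 0.705) for Arc, 0.23 (SE 0.778) for Egr1 and 0.525 (SE 0.786) for Npas4 were within their error. The same array was the highest of the 4 in 14 of the 24 genes. Over all named genes it was the highest in 19.9%. The list mean, relative to the 8-array mean, was 0.61 log2 on high-dose replicate 2, 0.21 on high-dose replicate 1, and 0.16 and 0.17 on the low-dose arrays. Without high-dose replicate 2 the median difference of the list was 0.0025 log2. Atf3, a stress-induced repressor, was the member with the lowest difference, at -0.31 (SE 0.277). Among 11 MAP kinase phosphatases, which switch off the signals that induce such genes, 0 were past the threshold. Dusp1 was at 0.475 (SE 0.384) and Dusp5 at 0.845 (SE 0.720).

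Hspa1a and Hspa1b are adjacent, nearly identical genes for the inducible chaperone HSP70, and their probe sets may each read both transcripts. Their promoters are shown because both genes were higher on both high-dose arrays. Both are on the minus strand of chromosome 17 (RefSeq, GRCm38.p6), Hspa1a at chr17:34972157-34972406 and Hspa1b at chr17:34959239-34959488. The windows end 1 base before the start and are identical in 247 of 250 bases. Capitals mark an inverted GAA repeat, GAANNTTC, the core of the heat shock element.
Hspa1a: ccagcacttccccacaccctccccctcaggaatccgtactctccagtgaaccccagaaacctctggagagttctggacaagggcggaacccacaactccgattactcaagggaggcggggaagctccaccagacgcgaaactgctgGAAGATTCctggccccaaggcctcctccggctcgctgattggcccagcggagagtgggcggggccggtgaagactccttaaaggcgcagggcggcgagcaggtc
Hspa1b: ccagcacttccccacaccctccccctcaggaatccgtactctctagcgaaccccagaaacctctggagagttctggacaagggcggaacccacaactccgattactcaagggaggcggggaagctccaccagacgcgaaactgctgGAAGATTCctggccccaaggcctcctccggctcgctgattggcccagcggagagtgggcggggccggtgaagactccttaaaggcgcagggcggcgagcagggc
This repeat, or TTCNNGAA, occurs on the printed or the opposite strand in 12.8% of the 32851 windows, so its presence is not particular to these genes.

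The Hspa1a level was 8.25 and 8.47 (log2) at the low dose and 8.93 and 9.93 at the high dose, with the water arrays between 7.84 and 8.43. The difference was 1.07 log2 (SE 0.359, 95% confidence interval 0.25 to 1.89, unadjusted p = 0.0169). For Hspa1b the levels were 8.56 and 8.84 against 9.02 and 9.68, a difference of 0.65 (SE 0.3095) that was not past the threshold. Dnajb1, the DNAJ co-chaperone that works with that protein, was at 11.01 and 10.83 against 11.51 and 11.90, a difference of 0.785 (SE 0.290). Its water arrays lay between 10.05 and 10.74. In all 3 genes the doses did not overlap, and high-dose replicate 2 was the highest of the 8 arrays. Without that array Hspa1a was at 0.57 and Dnajb1 at 0.59 log2, and neither was past the threshold. Hspa1a also missed it without low-dose replicate 1 (0.96), and Dnajb1 without low-dose replicate 2 (0.695).

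Of 17 heat shock chaperone genes measured, Hspa1a and Dnajb1 were past the threshold upward and 0 downward. The difference was above 0 in 12 of the 17, with a median of 0.22 log2. In 6 of the 17 both high-dose arrays lay above both low-dose arrays, where all genes gave 13.0%. Hsph1, a nucleotide exchange factor of the chaperone cycle, had levels of 14.52 and 14.35 at the low dose and 14.73 and 15.22 at the high dose. The mitochondrial chaperonin gene Hspd1 stood at 13.35 and 13.32 against 13.54 and 13.57, and the cytosolic chaperone gene Hsp90aa1 at 17.04 and 16.91 against 17.10 and 17.27. These 3, picked after their values were seen, did not overlap between doses but had differences of 0.21 to 0.54 log2 that did not pass the threshold. The small heat shock genes Hspb1, at 0.57 (SE 0.344), and Cryab, at 0.455 (SE 0.3115), had 1 high-dose array each above both low-dose arrays. High-dose replicate 2 was the highest of the 4 arrays in 12 of the 17 genes and replicate 1 in 1. As with the immediate early genes, the list mean was largest on that array, at 0.42 log2 above the 8-array mean against 0.12 on high-dose replicate 1. Without high-dose replicate 2 the median difference of the list was 0.095 log2. Chaperones of the endoplasmic reticulum gave smaller values. Of 22 genes of the unfolded protein response, 0 were past the threshold upward and 1 downward, with a median of 0.06, and Hspa5, the main chaperone of that compartment, was at 0.155 (SE 0.215). The 1 gene was Chac1, a glutathione-degrading enzyme induced by ATF4. Its levels were 6.65 and 6.19 at the low dose and 5.43 and 5.88 at the high dose, a difference of -0.765 log2 (SE 0.288). Chac1 was not past the threshold without low-dose replicate 1 (-0.535) or high-dose replicate 1 (-0.54), or after quantile normalization (-0.715).

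Sgk1, the serum- and glucocorticoid-induced kinase, had the second largest upward difference of the 15 higher genes singled out here by size. Its level was 10.60 and 10.65 (log2) at the low dose and 11.71 and 11.81 at the high dose. The difference of 1.135 (SE 0.383, 95% confidence interval 0.257 to 2.01, unadjusted p = 0.0174) was larger than the gaps between arrays, 0.05 at the low and 0.10 at the high dose. The water arrays were spread more widely, at 10.92 and 10.58 without TST and 11.31 and 10.05 with TST. Both high-dose arrays lay above all of them. The value lay between 1.085 and 1.185 with any 1 of the 4 extract arrays left out, but it was not past the threshold in any of those 4 fits. In each of them 1 dose mean rests on a lone array, and there are fewer degrees of freedom.

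Sgk1 was the 1 of 19 glucocorticoid receptor and target genes past the threshold. The median of the list was 0.175 log2, and 13 of the 19 were above 0. It was 0.015 without low-dose replicate 2 and 0.075 without high-dose replicate 2. Both high-dose arrays lay above both low-dose arrays in 5 of the 19 and below them in 2, where all genes gave 13.0% and 13.8%. Ddit4, a stress-induced inhibitor of mTORC1, was at 8.55 and 8.29 against 8.75 and 8.87. Pdk4, a mitochondrial kinase that limits glucose oxidation, was at 7.92 and 7.44 against 8.10 and 8.03, and the metallothionein gene Mt1 at 16.08 and 16.03 against 16.29 and 16.44. The doses did not overlap in these 3, also picked after their values were seen, whose differences of 0.31 to 0.39 did not reach an unadjusted p under 0.05. Fkbp5, a co-chaperone of the receptor, was at -0.265 (SE 0.515), Tsc22d3 at -0.04 (SE 0.224), and the receptor gene Nr3c1 itself at 0.175 (SE 0.290, 95% confidence interval -0.49 to 0.84). Sult1a1, a sulfotransferase gene, had the lowest difference of the list at -0.605 (SE 0.277), with levels of 7.49 and 7.51 against 6.97 and 6.82 that did not overlap.

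**Figure D2:**
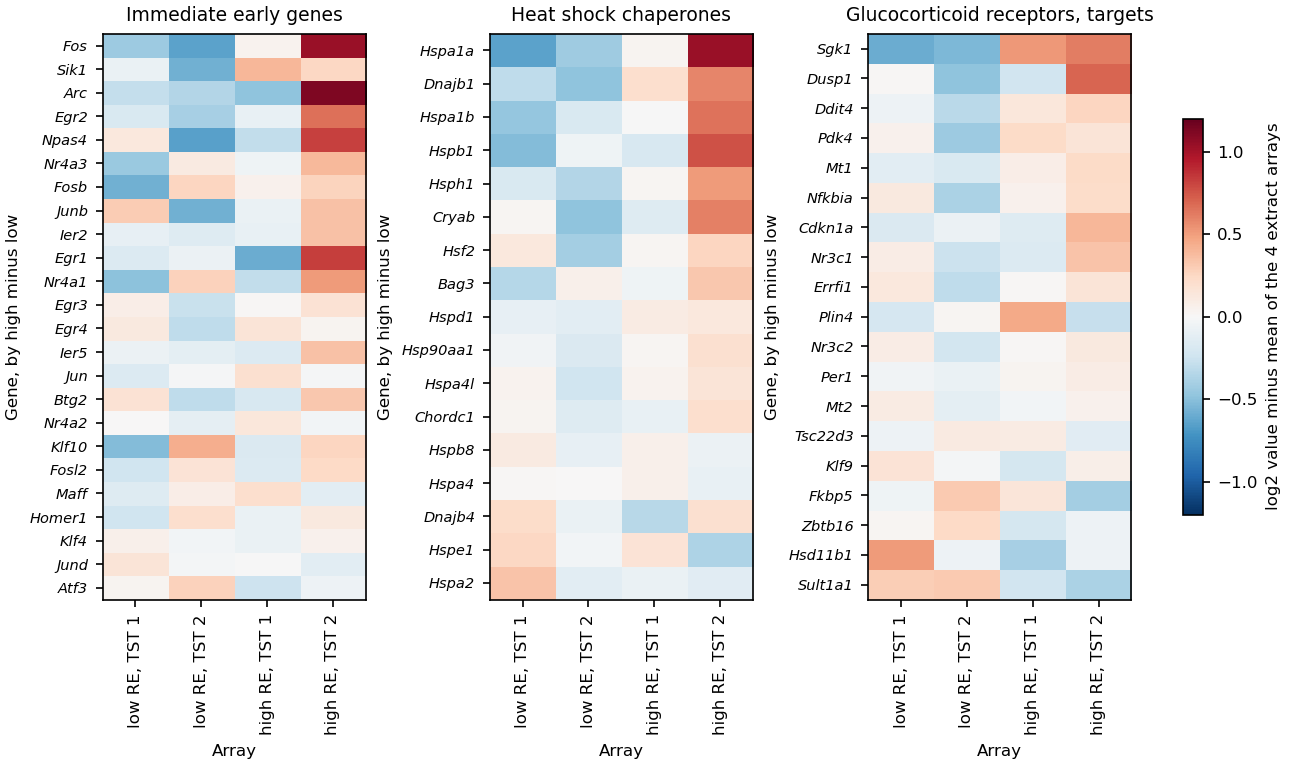
Log2 value of each gene (y axis, ordered by the difference between doses) on each of the 4 extract arrays (x axis), minus the mean of those arrays, for immediate early genes, heat shock chaperones, and glucocorticoid receptors and targets. Red is above the mean and blue below. High-dose replicate 2 is the highest array in 14 of 24 immediate early genes and 12 of 17 chaperone genes, while Sgk1 is raised on both high-dose arrays.

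Cartpt encodes the CART peptides, which act in feeding, reward and stress circuits. Its 250-base promoter window is shown because it holds the full palindromic cyclic AMP response element TGACGTCA, in capitals (RefSeq, GRCm38.p6, chr13:99900684-99900933, minus strand). That element is present in 1.55% of the 32851 windows. Since the window was chosen for the match, the share lends it no weight, and the match describes the window only. The window also holds 1 inverted GAA repeat, not in capitals, a motif found in 12.8% of the windows.
Cartpt: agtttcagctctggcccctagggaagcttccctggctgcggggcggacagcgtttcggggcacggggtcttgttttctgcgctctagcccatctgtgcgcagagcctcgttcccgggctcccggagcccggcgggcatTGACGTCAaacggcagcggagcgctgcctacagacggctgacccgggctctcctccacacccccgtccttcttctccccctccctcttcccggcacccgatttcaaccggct
The Cartpt level was 8.57 and 8.19 at the low dose and 9.52 and 9.23 at the high dose, a log2 difference of 0.995 (SE 0.390, unadjusted p = 0.033). The water arrays were at 8.56 and 9.81 without TST and 8.18 and 8.09 with TST. The high-dose level was therefore above the water level with TST and within the range of the water arrays without it. Cartpt was not past the threshold without low-dose replicate 2 (0.805), high-dose replicate 1 (0.85) or high-dose replicate 2 (1.14).

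A further 3 genes, of the 41 past the threshold that were followed, kept their place past it under every one of the 16 other settings tried. Of these 3, 2 were higher at the high dose. Several of the settings amount to the same fit and all reuse the same arrays, so they are not 16 separate checks. Fam126a encodes hyccin, a part of the lipid kinase complex that makes phosphatidylinositol 4-phosphate and is needed for myelination. Its level was 10.49 and 10.19 at the low dose and 11.45 and 11.17 at the high dose, with the water arrays between 10.45 and 11.27, a log2 difference of 0.97 (SE 0.256, unadjusted p = 0.00499). Usp30 encodes a deubiquitinase of the outer mitochondrial membrane that opposes mitophagy. Its level was 8.63 and 8.64 against 9.55 and 9.48, a difference of 0.88 (SE 0.239, limma, unadjusted p = 0.00576), and the water arrays lay between the doses at 8.74 to 9.14. With any 1 extract array left out, Fam126a lay between 0.82 and 1.12 and Usp30 between 0.845 and 0.915. The third gene, Nrde2, was lower and is described below.

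The largest upward difference among the 15 higher genes was that of Ikbip, which encodes a protein that binds the kinase IKK-beta. The Ikbip level was 8.62 and 8.37 at the low dose and 9.90 and 9.38 at the high dose, a log2 difference of 1.145 (SE 0.310). Paqr8, a membrane progestin receptor gene, stood at 11.63 and 11.53 against 12.62 and 12.72, a difference of 1.09 (SE 0.377). In Paqr8 3 of the 4 water arrays, at 11.67 to 11.83, lay near the low dose, while water with TST replicate 2 stood at 13.04. Csrnp2, a nuclear protein gene, was at 8.92 and 8.20 against 9.58 and 9.44, a difference of 0.95 (SE 0.279). Both high-dose arrays of Csrnp2 were above all water arrays, which lay between 8.85 and 9.06. Ikbip was not past the threshold without high-dose replicate 1 (0.885). Paqr8 was not past it with any 1 extract array left out (1.04 to 1.14), nor was Csrnp2 without low-dose replicate 2 (0.59) or high-dose replicate 1 (0.88).

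The other named genes that were higher included 2 of the immune system. Lta, the gene of the cytokine lymphotoxin alpha, had levels of 7.09 and 7.63 against 8.08 and 8.31, a log2 difference of 0.835 (SE 0.254). Il3ra, the interleukin 3 receptor alpha chain, was at 6.35 and 7.05 against 7.80 and 7.23, a difference of 0.815 (SE 0.324). In Il3ra both low-dose arrays lay below the water arrays, which were at 7.22 to 7.67, replicate 1 by the wider margin. Zfp526, a zinc finger gene, showed the same picture, at 6.55 and 7.24 against 7.62 and 7.77, with water at 7.42 to 7.96. Lmf2, a lipase maturation factor, was at 0.85 (SE 0.359) and Adssl1, an enzyme of AMP synthesis, at 0.83 (SE 0.269). Lta was not past the threshold without low-dose replicate 1 (0.565) or high-dose replicate 2 (0.72). The same held for Adssl1 (0.765 and 0.505). Il3ra missed it without low-dose replicate 1 (0.465) or high-dose replicate 1 (0.53), and Zfp526, whose difference was 0.80, without these (0.455 and 0.875) or high-dose replicate 2 (0.725). Lmf2 missed it without low-dose replicate 2 or high-dose replicate 1 (0.505 in both) and without either water array that had no TST, where only the spread changed.

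Cwc22, which encodes a splicing factor of the exon junction complex, had the largest difference of all, and its size came from 1 array. Its level was 8.57 and 13.71 at the low dose and 7.74 and 7.73 at the high dose. The water arrays lay between 7.99 and 8.21. Low-dose replicate 2 was thus over 5 log2 units above every other array. The difference was -3.405 (SE 1.28) with all arrays, -0.835 without low-dose replicate 2 and -5.975 without replicate 1. Without either low-dose array the gap between them no longer enters the spread, so those fits cannot show whether the call holds. Cwc22 was not past the threshold without high-dose replicate 1 (-3.41) or replicate 2 (-3.40), or with a trended robust prior.

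Masp2, the protease that starts the lectin pathway of complement, was high on both low-dose arrays. Its level was 9.44 and 9.07 at the low dose and 7.42 and 7.26 at the high dose, a log2 difference of -1.915 (SE 0.658, unadjusted p = 0.0189). On 3 of the water arrays it was at 7.62 to 7.71 and on water with TST replicate 2 at 5.20. The low-dose pair therefore lay above all other arrays, and the high-dose pair near most of the water arrays. Masp2 was not past the threshold without low-dose replicate 1 (-1.73), high-dose replicate 1 (-1.995) or high-dose replicate 2 (-1.835).

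Nrde2, a nuclear regulator of the RNA exosome, was the lower gene that stayed past the threshold under every setting, among the 41 genes followed. The other genes of the 365 past the threshold were not followed across settings. Its level was 7.81 and 7.76 at the low dose and 6.85 and 6.76 at the high dose, with the water arrays at 7.04 to 7.58 between them. The log2 difference was -0.98 (SE 0.239, 95% confidence interval -1.53 to -0.43, unadjusted p = 0.00319), and it lay between -1.025 and -0.935 with any 1 extract array left out. A pair of signalling adaptors was lower as well. Tab1, an activator of the kinase TAK1 in cytokine signalling, stood at 8.51 and 8.28 against 7.25 and 7.62, a difference of -0.96 (SE 0.278). Sh2b1, an adaptor of leptin and insulin receptors, was at 9.02 and 8.11 against 7.50 and 7.66, a difference of -0.985 (SE 0.328). Tab1 was not past the threshold without high-dose replicate 1 (-0.775), nor Sh2b1 without low-dose replicate 1 (-0.53) or high-dose replicate 1 (-0.905).

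A further 4 of the lower genes had differences between -0.92 and -0.765 log2. Cyb5r3, the cytochrome b5 reductase, had levels of 12.17 and 11.68 at the low dose and 10.97 and 11.35 at the high dose. All 4 water arrays, at 12.10 to 12.60, were above the high dose. Rab37, a small GTPase of secretory granules, was at 7.92 and 8.17 against 7.52 and 6.98, and Plch2, a phospholipase C gene, at 7.93 and 7.76 against 7.07 and 7.0. Colec12, a scavenger receptor, was at 8.22 and 7.87 against 6.94 and 7.31. The log2 differences of these 4 were -0.765 (SE 0.274) for Cyb5r3, -0.795 (SE 0.272) for Rab37, -0.81 (SE 0.25) for Plch2 and -0.92 (SE 0.340) for Colec12. None of the 4 was past the threshold in every fit. Cyb5r3 missed it without low-dose replicate 1 (-0.52) or high-dose replicate 1 (-0.575), and Colec12 without the same arrays (-0.745 and -0.735). Plch2 missed it without low-dose replicate 1 (-0.725) or high-dose replicate 2 (-0.775), and Rab37 without low-dose replicate 2 (-0.67) or high-dose replicate 2 (-0.525).

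The remaining 6 of the 15 named lower genes had differences between -1.245 and -0.835 log2. They were the membrane protein genes Lsmem1 (-1.245, SE 0.448) and Tmem219 (-0.835, SE 0.296), the centrosomal gene Cep89 (-1.15, SE 0.392), the transcription factor gene Tceanc (-1.13, SE 0.427), the zinc finger gene Zfp992 (-1.02, SE 0.369) and the lipid transfer gene Stard6 (-0.87, SE 0.30). In Cep89 the 2 high-dose arrays were at 6.70 and 7.93, and leaving out the former gave -0.535, the latter -1.765. Each of these genes missed the threshold when single arrays were left out. Without low-dose replicate 1 these were Lsmem1 (-0.905), Tceanc (-1.085), Zfp992 (-0.71), Stard6 (-0.725) and Tmem219 (-0.50). Without low-dose replicate 2 they were Cep89 (-0.985) and Tceanc (-1.175). Without high-dose replicate 1 they were Cep89, Tceanc (-0.885), Zfp992 (-0.83) and Tmem219 (-0.615), and without high-dose replicate 2 Lsmem1 (-0.78) and Stard6 (-0.495).

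**Figure D3:**
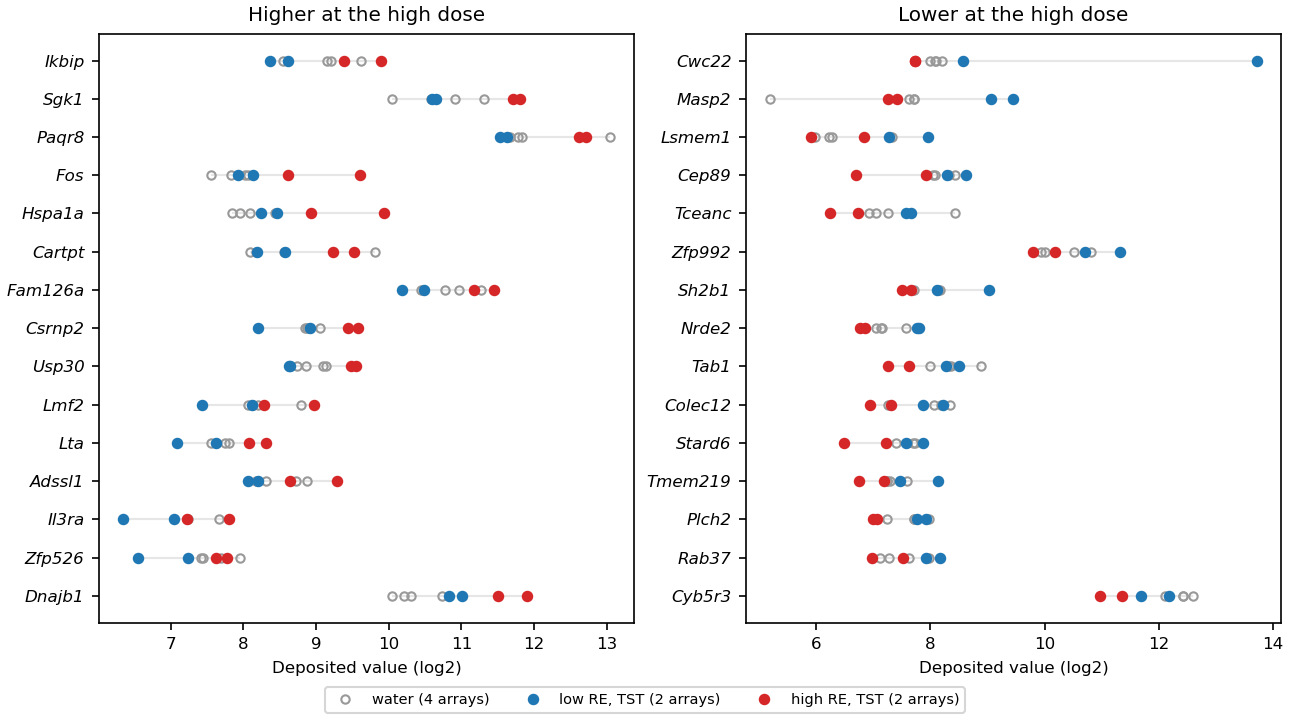
Deposited log2 value (x axis) on each array of the 15 named genes with the largest upward and the 15 with the largest downward difference past the study's threshold (y axis). Blue points are the 2 low-dose arrays, red points the 2 high-dose arrays and open grey points the 4 water arrays. The doses do not overlap in any of the 30, by the rule that chose them, and the size of the Cwc22 difference rests on 1 low-dose array at 13.71.

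The water arrays gave the named genes a reference level. In all 365 genes past the threshold the doses did not overlap. An extract pair at one end of the arrays is therefore partly built in by that choice. In 7 of the 15 higher genes both high-dose arrays lay above all 4 water arrays, and in 4 both low-dose arrays lay below all of them. In 10 of the 15 lower genes both high-dose arrays lay below all water arrays, and in 3 both low-dose arrays lay above them. Over the 179 genes past the threshold upward, both high-dose arrays were above the other 6 in 65, and both low-dose arrays were below the other 6 in 78. Over the 186 past it downward, both low-dose arrays were the highest in 90 and both high-dose arrays the lowest in 55. Of all 19505 named genes, both low-dose arrays lay above the other 6 in 576 and below them in 464. Both high-dose arrays lay above the other 6 in 470 and below them in 494.

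Neuropeptide and stress hormone genes gave few differences. Of 23 neuropeptide precursor genes, Cartpt alone was past the threshold, with 12 above and 11 below 0 and a median of 0.035 log2. Pmch, the precursor of melanin-concentrating hormone of the lateral hypothalamus, had the largest upward difference of all 19505 genes. Its level was 8.47 and 8.70 at the low dose and 10.32 and 9.78 at the high dose, a difference of 1.465 (SE 1.35), whose 95% confidence interval of -1.62 to 4.55 included 0. The water arrays, which enter the error, ranged from 6.80 to 11.81. Oxt, the oxytocin precursor gene, was at 6.27 and 6.50 against 6.74 and 6.24, a difference of 0.105 (SE 0.422, 95% confidence interval -0.86 to 1.07). Avp, the vasopressin precursor gene, was at -0.445 (SE 0.892) and the oxytocin receptor gene Oxtr at -0.44 (SE 0.374, 95% confidence interval -1.30 to 0.42). The Oxt interval covers differences of more than 0.8 log2 in either direction. Of 10 genes of the oxytocin and vasopressin system, 1 was past the threshold, the pituitary-type vasopressin receptor gene Avpr1b, with levels of 4.52 and 5.02 against 5.65 and 5.31. All were below the median of all values. Its difference of 0.71 (SE 0.287) was not past the threshold without low-dose replicate 1 (0.46), without high-dose replicate 1 (0.54), or without either water array that had no TST. Crh, which encodes corticotropin-releasing hormone, was at 6.91 and 6.85 against 6.98 and 6.85, a difference of 0.035 (SE 0.285). Of 7 genes of that system 0 were past the threshold. Of 25 neuropeptide receptor genes, 1 was past it, Hcrtr2, the orexin receptor 2 gene, at 8.18 and 7.95 against 7.23 and 7.61. Its difference of -0.645 (SE 0.255) was not past the threshold without low-dose replicate 1 (-0.53) or high-dose replicate 1 (-0.455).

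Genes of monoamine neurons differed between the 2 high-dose arrays as much as between the doses. Th, which encodes tyrosine hydroxylase, the rate-limiting enzyme of catecholamine synthesis, had levels of 6.42 and 6.75 at the low dose and 8.38 and 7.09 at the high dose. Slc6a3, the dopamine transporter gene, was at 5.83 and 6.49 against 8.58 and 6.12. Slc18a2, the vesicular monoamine transporter gene, was at 7.09 and 7.69 against 8.34 and 7.75. High-dose replicate 1 was the highest of the 4 arrays in these 3 and in 9 of the 14 monoaminergic markers measured. Their differences of 1.15 (SE 0.599) for Th, 1.19 (SE 0.696) for Slc6a3 and 0.655 (SE 0.448) for Slc18a2 were not past the threshold. The mean of the marker list relative to the 8-array mean was 0.35 log2 on high-dose replicate 1 and -0.36 on replicate 2. Without high-dose replicate 1 its median difference was -0.055, against 0.27 with it. The serotonergic genes Tph2, at 0.245 (SE 0.477), and Slc6a4, at -0.12 (SE 0.736), and the degrading enzyme gene Maoa, at 0.045 (SE 0.355), were within their error. Of 15 genes of the catecholamine system 0 were past the threshold, and of 21 of the serotonin system 1 was. That was Htr3b, a subunit of the serotonin-gated channel, with low levels of 4.19 and 4.61 against 4.93 and 5.23, a difference of 0.68 (SE 0.276). Htr3b was not past the threshold without low-dose replicate 1 (0.47), high-dose replicate 1 (0.83) or replicate 2 (0.53), or either water array that had no TST.

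Other transmitter systems had medians near that of all genes. Among 18 genes of the cholinergic system the median was -0.0725 log2, 11 were below 0, and Chrnb4, a nicotinic receptor subunit, was past the threshold downward, with levels of 6.72 and 6.56 against 6.23 and 5.98. Its difference of -0.535 (SE 0.225) was not past the threshold with any 1 extract array left out (-0.66 to -0.41) or without either water array that had no TST. Chat, the acetylcholine-synthesizing enzyme gene, was at 3.77 and 4.14 against 3.31 and 3.93, near the bottom of the scale, and Ache, the acetylcholinesterase gene, was at -0.065 (SE 0.323). Of 25 glutamate receptor and transporter genes 17 were below 0 (median -0.06) and 0 were past the threshold. Grin2d, an NMDA receptor subunit, had the largest difference among them, at 7.50 and 7.57 against 8.27 and 7.98 (difference 0.59, SE 0.285). Of 17 GABA genes 12 were above 0 (median 0.06) and 0 were past it. Of 12 neurotrophin and receptor genes 0 were past it. Bdnf, the brain-derived neurotrophic factor gene, stood at 10.13 and 10.24 against 9.88 and 10.02, a difference of -0.235 (SE 0.340, 95% confidence interval -1.01 to 0.54). Both high-dose arrays of Bdnf lay below both low-dose arrays, by less than the error.

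No antioxidant gene was past the threshold. Of 24 Nrf2 and antioxidant enzyme genes 0 were past the threshold, 15 were above and 9 below 0, and the median was 0.045 log2. Hmox1, the heme oxygenase 1 gene, was at 6.69 and 6.56 against 6.25 and 6.42, a difference of -0.29 (SE 0.244). Nqo1, a quinone reductase and classical Nrf2 target, was at 7.0 and 5.64 against 6.92 and 6.09, a difference of 0.185 (SE 0.497, 95% confidence interval -0.95 to 1.32). Txnrd1, the thioredoxin reductase 1 gene, was the 1 member whose high-dose arrays both lay above the low-dose arrays, at 11.04 and 10.63 against 11.23 and 11.21, where 13.0% of all genes did so, and in 3 members both lay below. Nfe2l2, which encodes Nrf2 itself, was at 4.92 and 6.09 against 5.34 and 5.48. Low-dose replicate 2 was the lowest of the 4 arrays in 13 of the 24 genes, against 29.9% of all genes, so the gap between the low-dose arrays was larger than that between doses. Of 8 genes of the aryl hydrocarbon receptor battery, which handles many plant compounds, 0 were past the threshold.

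Among metabolic and housekeeping groups, 0 of 19 cholesterol synthesis genes, 0 of 40 cytosolic ribosomal protein genes and 0 of 68 oxidative phosphorylation genes were past the threshold. In 4 of the cholesterol genes both high-dose arrays were above both low-dose arrays and in 1 below, where all genes gave 13.0% and 13.8%. Among the 4 were Hmgcs1, an early enzyme of the pathway, at 15.28 and 15.30 against 15.61 and 15.85 and Cyp51, a later one, at 12.13 and 11.90 against 12.86 and 12.16. Their differences were 0.44 (SE 0.220) for Hmgcs1 and 0.495 (SE 0.279) for Cyp51. The ribosomal protein genes were above 0 in 30 of 40, with a median of 0.0825, and 22 of the 40 were lowest on low-dose replicate 2. The median was 0.0075 without that array and 0.1925 without low-dose replicate 1. The oxidative phosphorylation genes were above 0 in 34 and below in 32. Of these 68, 37 were highest on low-dose replicate 1 and 37 were lowest on low-dose replicate 2, so they mark the gap between the low-dose arrays. Clock genes (0 of 19 past the threshold, with Nr1d1 at -0.15, SE 0.262), cytokines and inflammatory mediators (0 of 22), interferon-stimulated genes (0 of 12), endocannabinoid genes (0 of 11), synaptic vesicle genes (0 of 18) and neuropeptide processing genes (0 of 11) had medians between -0.145 and 0.09 log2.

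**Figure D4:**
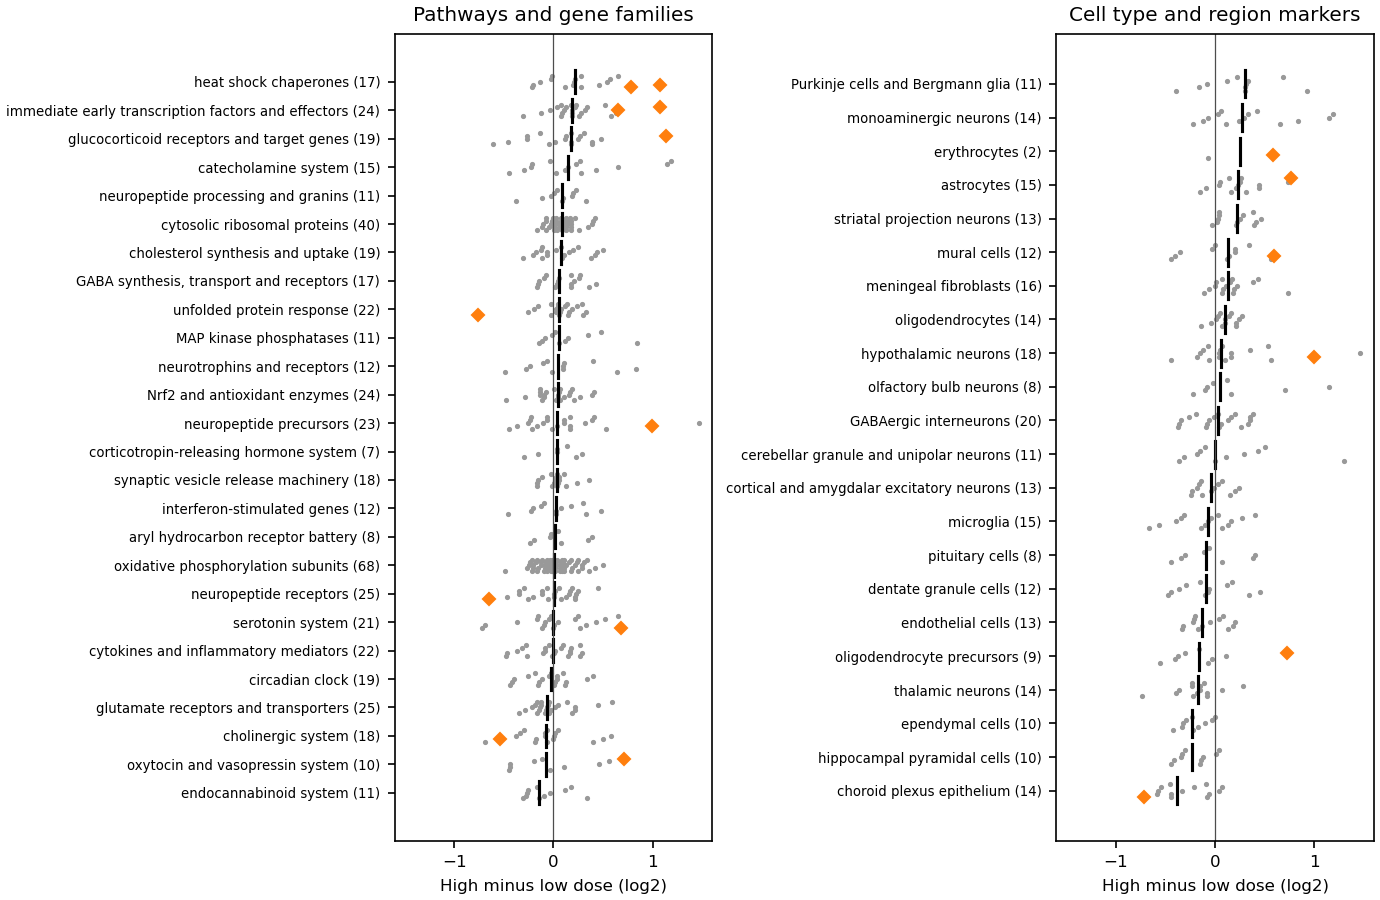
Log2 difference, high minus low dose (x axis), of each measured member of 48 gene lists (y axis, number of members in brackets). Grey points are members not past the study's threshold, orange diamonds members past it, and black bars list medians. The median over all named genes is -0.005, and list medians run from -0.3875 for choroid plexus to 0.305 for Purkinje cells and Bergmann glia.

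Cell type markers gave a view of tissue composition. In bulk tissue fewer cells of a type and less RNA per cell cannot be told apart, and the part of tissue composition in the differences above was not tested. Choroid plexus genes, which mark the epithelium that makes cerebrospinal fluid, were lower at the high dose in 12 of 14, with a median of -0.3875 log2. Ttr, the transthyretin gene and its best-known marker, was at 17.23 and 17.91 at the low dose and 16.82 and 17.17 at the high dose. The water arrays ranged from 13.98 to 17.51, and the Ttr difference of -0.575 (SE 0.889) was within its error. The ion channel gene Kcnj13 was at 10.94 and 12.35 against 11.07 and 11.04, and the water channel gene Aqp1 at 7.0 and 7.86 against 7.08 and 6.68. Low-dose replicate 2 was the highest of the 4 arrays in 12 of the 14 markers, and without it the median was 0.02. Cldn2, a tight junction gene, was past the threshold at 5.77 and 6.29 against 5.33 and 5.29, a difference of -0.72 (SE 0.306). It was not past it without low-dose replicate 2 (-0.46), high-dose replicate 1 (-0.74) or replicate 2 (-0.70), or either water array that had no TST. Ependymal markers had a difference below 0 in 10 of 10, with a median of -0.23, and 0 were past the threshold. The doses overlapped in all 10, where both high-dose arrays lay below both low-dose arrays in 13.8% of all genes. Only 2 of the 10 had a dose mean above the median of all values. In 6 of the 10 low-dose replicate 2 was the highest of the 4 arrays, and without it the median was -0.0775.

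None of the markers of hippocampal pyramidal cells and thalamic neurons was past the threshold. Of 10 pyramidal markers 8 were below 0 (median -0.23) and in 6 both high-dose arrays lay below both low-dose arrays, where all genes gave 13.8%. Wfs1, a gene of the pyramidal cells of field CA1, was at 11.44 and 11.72 against 11.28 and 11.27, and Fibcd1 at 8.55 and 8.21 against 8.04 and 7.89. The pyramidal median lay between -0.2875 and -0.1475 with any 1 extract array left out. Of 14 thalamic markers 12 were below 0 (median -0.1675), 10 of the 14 were highest on low-dose replicate 1, and the median was 0.0225 without that array. Of these 14, both high-dose arrays lay below both low-dose arrays in 2. The thalamic transcription factor gene Tcf7l2 was at 14.94 and 14.82 against 14.72 and 14.68, above all water arrays (12.37 to 13.87) at both doses. In striatal projection neurons 12 of 13 markers were above 0 (median 0.22), 10 were lowest on low-dose replicate 2, and the median was -0.115 without it. The difference of the dopamine receptor gene Drd1 was -0.035 (SE 0.713), and the level of Penk, which encodes enkephalins, was 14.51 and 13.46 against 14.16 and 14.63.

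Astrocyte markers were higher at the high dose in 13 of 15, with a median of 0.23 log2, and in 7 of the 15 both high-dose arrays were above both low-dose arrays, where all genes gave 13.0%. Gjb6, which encodes the astrocyte gap junction protein connexin 30, was past the threshold, at 9.99 and 9.49 against 10.55 and 10.46, a difference of 0.765 (SE 0.253, unadjusted p = 0.0157). The water arrays of Gjb6, at 10.20 to 10.59, lay with the high dose and above both low-dose arrays. Slc1a3, a glutamate transporter gene, was at 11.49 and 11.28 against 11.85 and 11.81, a difference of 0.445 (SE 0.272), and its water arrays, at 11.91 to 12.59, lay above both doses. Gfap was at 0.14 (SE 0.239). Low-dose replicate 2 was the lowest of the 4 arrays in 11 of the 15 markers, the median without it was 0.145, and Gjb6 then stood at 0.515 and was not past the threshold. Gjb6 also missed it without high-dose replicate 1 (0.72). Of 14 oligodendrocyte markers 12 were above 0 (median 0.10, 11 lowest on low-dose replicate 2, -0.16 without it), and Mbp, a myelin protein gene, was at 0.16 (SE 0.266). Of 9 precursor markers 7 were below 0, among them Olig2 at -0.555 (SE 0.265), but C1ql1, a secreted synaptic protein gene, was past the threshold upward at 8.51 and 9.09 against 9.79 and 9.27 (difference 0.73, SE 0.290). C1ql1 was not past it without low-dose replicate 1 (0.44), high-dose replicate 1 (0.47) or either water array that had no TST. Microglial markers were below 0 in 9 of 15 (median -0.075, 0 past the threshold), with Aif1 at 9.26 and 7.51 against 8.76 and 8.82.

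Of the vascular, meningeal and blood lists, 1 of 12 mural and 1 of 2 erythroid genes were past the threshold, both with low levels. Of the mural genes 7 were above and 5 below 0. Des, the desmin gene, was at 4.33 and 4.51 against 5.07 and 4.95, a difference of 0.59 (SE 0.248), and missed the threshold with any 1 extract array (0.50 to 0.68) or either water array without TST left out. Alas2, the erythroid enzyme of heme synthesis, was at 6.48 and 6.67 against 7.13 and 7.18, a difference of 0.58 (SE 0.237). Alas2 missed the threshold without low-dose replicate 1 (0.485), high-dose replicate 1 (0.605) or replicate 2 (0.555). The other erythroid gene, Slc4a1, had a difference of -0.07 (SE 0.358) and was not past the threshold. Endothelial markers (median -0.135) and meningeal fibroblast markers (median 0.13) had 0 members past it. Neither pituitary nor olfactory bulb markers had any.

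Cerebellar markers are given because 2 water arrays of the series carried much of them. Over 11 markers of cerebellar granule and unipolar neurons, the mean relative to the 8-array mean was 4.14 log2 on water with TST replicate 2 and 2.18 on water without TST replicate 1. On the 4 extract arrays it lay between -1.32 and -0.88. High-dose replicate 1 was the highest of these 4, with Gabra6, a granule cell GABA-A receptor subunit, at 7.64 against 5.14 on the other high-dose array and 5.48 and 4.69 at the low dose. Of 11 markers of Purkinje cells and Bergmann glia, 8 were above 0, with a median of 0.305 log2 and 0 past the threshold. In 5 of the 11 both high-dose arrays lay above both low-dose arrays and in 2 below, where all genes gave 13.0% and 13.8%. That median lay between 0.045 and 0.32 with any 1 extract array left out. Pcp2, a Purkinje cell gene, was also highest on high-dose replicate 1, at 8.64 against 7.64, with 6.99 and 7.44 at the low dose. These levels were far below the 16.37 of Gabra6 and the 15.29 of Pcp2 on water with TST replicate 2. Neither Gabra6 (1.305, SE 3.13) nor Pcp2 (0.925, SE 2.135) differed beyond its error, and the SE of both was inflated by the water arrays. Leaving out both of these water arrays, a choice made after seeing the data, leaves each water group a lone array that adds nothing to the spread. The fit is then that to the 4 extract arrays alone, which placed 531 probe sets past the threshold and 0 past adjustment. It cannot separate cerebellar content from the loss of all water arrays.

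**Figure D5:**
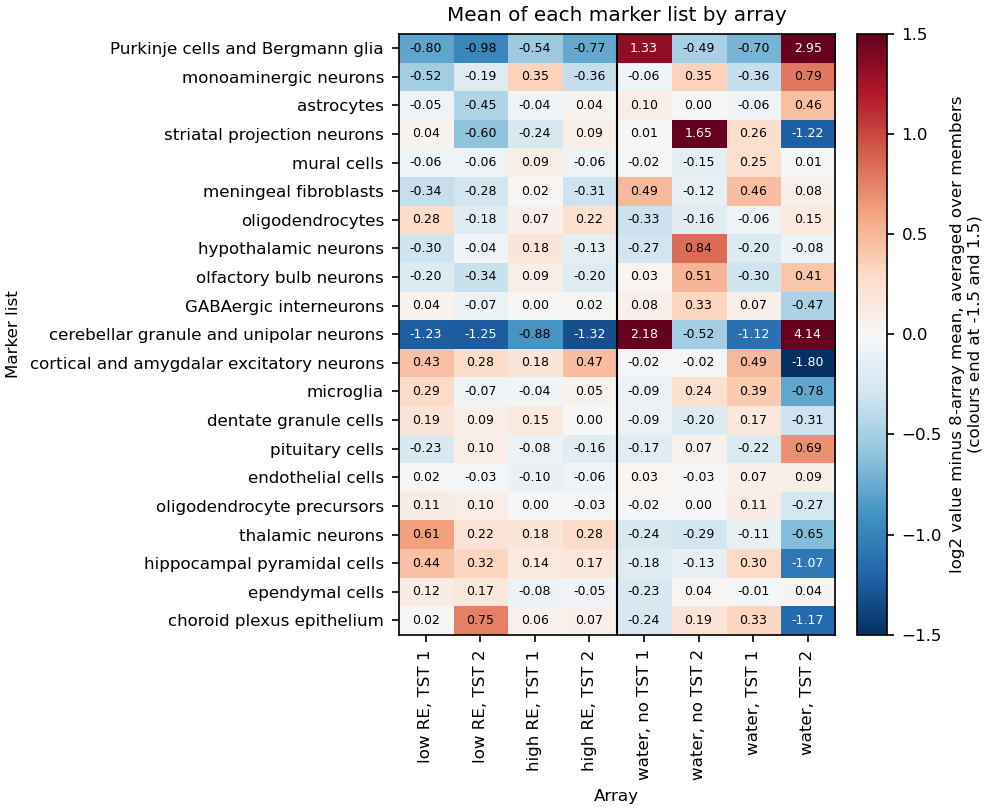
Mean over the members of each marker list (y axis) of the log2 value minus the 8-array mean, by array (x axis; extract arrays left of the line, water arrays right of it). Colours end at -1.5 and 1.5, and the printed numbers give the means. Low-dose replicate 2 stands out in choroid plexus markers at 0.75, striatal markers at -0.60 and astrocyte markers at -0.45. On the extract arrays the cerebellar granule and unipolar markers lie between -1.32 and -0.88, and the Purkinje and Bergmann glia markers between -0.98 and -0.54.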

How the data were processed

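RNA of 8 brain samples, 2 in each of 4 groups, was measured on mouse Clariom S arrays. The deposited values are log2 gene-level signals that the authors made with RMA, a method of background correction, quantile normalization and probe summary, in Transcriptome Analysis Console 4.0.1, per the submitters' processing notes and design text. They were used as deposited, with no pseudocount, filter or further scaling. Array medians of the 4 extract arrays lay between 7.46 and 7.51. Values reached 19.79 in these arrays, and 663 exceeded 16, the log2 limit of a 16-bit scanner, so the scale may be stretched and folds are on the deposited scale. The number of arrays limits the precision.

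Of 22206 probe sets, 19572 carried 1 gene symbol in the platform table and 2634 were not named here. They gave 19505 genes, of which 55 had several probe sets. Of 811 genes on the lists used, 86 had no probe set named here. A linear model with 1 mean per group was fitted to all 8 arrays with limma 3.58.1 in R 4.3.3 (4 residual degrees of freedom, 95% intervals from the moderated distribution), and p-values were adjusted by Benjamini-Hochberg over all probe sets. All p-values are two-sided. The study's threshold was a fold above 1.2 with an unadjusted p under 0.05. The text names the 15 genes with the largest difference in each direction that passed it, did not overlap between doses, were no predicted loci, chemoreceptors or small RNAs, and whose higher dose mean was above the median of all values (7.47), plus up to 4 members of each gene list, those past the threshold first and then by size, and a list of fixed genes. Atf3, Cryab, Ddit4, Hsp90aa1, Hspd1, Hsph1, Mt1, Npas4, Pdk4, Slc6a4, Tcf7l2, Tsc22d3 and Wfs1 fall outside this rule and were chosen after their values were seen. The fit was tested on simulated data with a common spread for all probe sets and groups. That test does not cover the unequal spread of the real groups. The genes and lists were chosen with earlier results of these data known. Same-numbered replicates of the doses did not deviate together (correlation of their replicate gaps -0.0989), so replicate numbers were not used as a block. Alternatives were the block, the arrays fitted, a trended robust prior, a filter on dim probe sets, quantile normalization, an analysis of variance and leaving out each array. Promoter sequences came from RefSeq (GRCm38.p6). For the array annotation itself no build was named, so no other coordinates are printed.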

Additional observations from a re-analysis of the deposited data

How the results depend on the processing

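Of the 41 genes followed that were past the threshold, only Fam126a, Usp30 and Nrde2 were past it in every setting. Several of the settings amount to the same fit, so they are not separate checks. All 41 kept their direction, but the doses did not overlap in these genes, so leaving out 1 array could not reverse it. The filter on dim probe sets kept 37 of the 41. The count of probe sets past an adjusted p of 0.05 was 0 in all settings except without low-dose replicate 1, and lay between 0 and 8 when 1 array was left out. The count past the study's threshold, 425 with all arrays, lay between 247 and 1183 when 1 array was left out, the group reduced to a lone array being assumed to vary like the others. Without the dimmest 25% of probe sets it was 251, with 16658 tested. It was 531 with only the 4 extract arrays, 313 with the 6 TST arrays, 360 with a trended robust prior, 507 after quantile normalization and 559 by analysis of variance. With the replicate number as a block it was 409, of which 342 were shared. The numbers are not known to pair the samples. The block ended the calls of Alas2, Chrnb4, Des, Lmf2 and Sik1, and the analysis of variance those of 30 of the 41. The trended robust prior ended those of Alas2, Chrnb4, Cldn2, Cwc22 and Sik1, and quantile normalization those of Chac1 and Chrnb4. The fit to the 6 TST arrays ended those of Avpr1b, C1ql1, Chrnb4, Cldn2, Des, Htr3b and Lmf2, and the fit to the 4 extract arrays that of Chrnb4. The medians of 15 of 48 gene lists kept their sign without each extract array in turn, and 33 did not. With 2 arrays per dose, a gene with the median error needed a difference of 0.67 log2 to reach an unadjusted p of 0.05.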
